A study of Mus musculus with 6 samples.

Results

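The zinc finger genes Zfp700 to Zfp999 were followed between 4T1-T cells that took up much or little acetylated low-density lipoprotein (acLDL). Members were all genes of the protein-coding table whose symbol lies between Zfp700 and Zfp999, with at most 1 further letter, which gave 127 of 15973 genes. The members were chosen by symbol, in a range selected on the fold changes between the 2 populations, which were already known, so the fold changes between populations are given here as a description and support nothing. 4T1-T is a single sub-clone of the mouse mammary carcinoma line 4T1 that forms vessel-like channels. Cells grown in 10% serum were starved overnight in medium with 0.3% BSA, were given Alexa-488 acLDL at 10 ug/mL for 4 h, and spent 1 h in complete medium. Both populations received all of this and differed only in the gate, acLDL-high being the brightest 25% and acLDL-low the dimmest 25% of each culture. The experiment was done on 3 occasions, which gave 3 acLDL-high and 3 acLDL-low libraries in 3 pairs (replicates 1 to 3). The libraries held between 70263372 and 94216786 counts, and 3 counts correspond to 0.0323 to 0.0429 CPM (the count scaled to a common library size).

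Most genes of this kind encode a protein that reads DNA with a row of zinc fingers. In each finger a pair of cysteines and a pair of histidines hold a zinc ion, and a few residues between them touch the bases. Many carry at their start a Krüppel-associated box (KRAB), whose A box recruits the corepressor TRIM28. TRIM28 in turn brings the histone methyltransferase SETDB1 and heterochromatin protein, and such complexes are best known for silencing retroelements. The genes multiply by local duplication, so neighbours can be nearly the same in sequence.

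The coding sequence of the last finger of a few members is shown because it carries both the fixed and the variable part of the family. Each stretch is 63 bases from a GENCODE M21 transcript, 5′ to 3′, and capitals mark the codons of the zinc-binding cysteines and histidines. Zfp773 has the lowest log2 fold change among the members tested, Zfp790 the second lowest among those with an average of at least 1 log2 CPM, Zfp809 silences murine leukaemia virus in embryonic cells, and Zfp967 and Zfp969 encode identical proteins.
Zfp773, finger 8: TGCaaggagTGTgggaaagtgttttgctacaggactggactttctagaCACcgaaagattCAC
Zfp790, finger 12: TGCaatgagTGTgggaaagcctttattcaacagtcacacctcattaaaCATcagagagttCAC
Zfp809, finger 7: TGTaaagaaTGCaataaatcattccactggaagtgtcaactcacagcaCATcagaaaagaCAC
Zfp967, finger 11: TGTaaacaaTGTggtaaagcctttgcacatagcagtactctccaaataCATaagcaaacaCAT
Zfp969, finger 11: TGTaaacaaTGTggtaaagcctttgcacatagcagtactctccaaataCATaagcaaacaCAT
Zfp967 and Zfp969 could not be told apart over this stretch, whereas the bases between the capitals differed among the other genes.

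A KRAB A box was found in at least 1 predicted protein of 104 of the 127 members. It was not detected in 23, which are called members without a box here. The box score is the highest over all annotated coding sequences of a gene, while fingers come from the longest that starts with ATG. The box and the fingers of a member can therefore stem from different transcripts. The box was scored with a matrix made from the members themselves, so a divergent box could go undetected. Those with a box scored at least 37.36 and those without at most -6.45. Zfp773 had the lowest score among the members with a box. Fingers were counted as 2 cysteines 2 to 4 residues apart, 12 residues, and 2 histidines 3 to 5 residues apart. Members with a box had a median of 11 fingers and a range of 0 to 30, and members without had a median of 5 and at most 20. Zfp729b had 30 fingers, Zfp729a had 27, and Zfp748 and Zfp788 had 23 each. No finger of this spacing was found in 6 members, among them Zfp703 and Zfp839.

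Chromosomes 7 and 17 held 23 members each, chromosome 4 held 16, chromosome 8 held 14, and chromosomes 2 and 13 held 12 each. Among the 8001 pairs of predicted proteins, 16 members had a partner that was at least 90% identical. Zfp965 and Zfp973 were 100% identical, as were Zfp966, Zfp967 and Zfp969. Zfp991 and Zfp992 were 98.95% identical, Zfp955a and Zfp955b 95.4%, and Zfp874a and Zfp874b 93.1%. The closest partner of Zfp773 among the members was Zfp772 on the same chromosome, at 44.8%. Exons of 34 members overlapped another gene, in 16 cases on the same strand and in 21 on the opposite strand. The libraries were stranded, but the strand setting of the counting is not given in the sources used here.

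Repeated sequence limits what a read of 50 bases can tell. Each member's longest transcript was searched for words of 50 bases that also occur in another gene. In 17 members no word was shared, in 60 fewer than 5% were, and in 20 at least 50% were. Both strands were searched, so a shared word can lie elsewhere or in a gene that overlaps the member at the same place, as for Zfp784 and Zfp865. A read wholly in a word repeated elsewhere cannot be assigned to 1 gene by its own sequence, though the other read of its pair may lie outside. The setting for reads with several matches is not given in the sources used here.

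The level of the family was low. Of the 127 members, 105 had enough counts to be tested and 22 had not. The 22 had between 1 and 31 counts over the 6 libraries, with a median of 3.5, and none had more than 10 counts in a library. They were 10 of the 16 members on chromosome 4, 8 of the 12 on chromosome 2, 2 on chromosome 11 and 1 each on chromosomes 7 and 14. A KRAB A box was present in 19 of them. The shared words made up a median of 59.8% of the transcript in these 22 and 3.99% in the 105 tested. In 17 of the 22 at least 5% of words were shared, so low counts and unassignable reads cannot be told apart in those. The rest of the 22 shared fewer than 5%. Zfp966, Zfp967 and Zfp969 had 11, 4 and 1 counts in all, and their shared words made up 89.5%, 100% and 100%. The plot of level against shared words shows both groups.

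**Figure D1:**
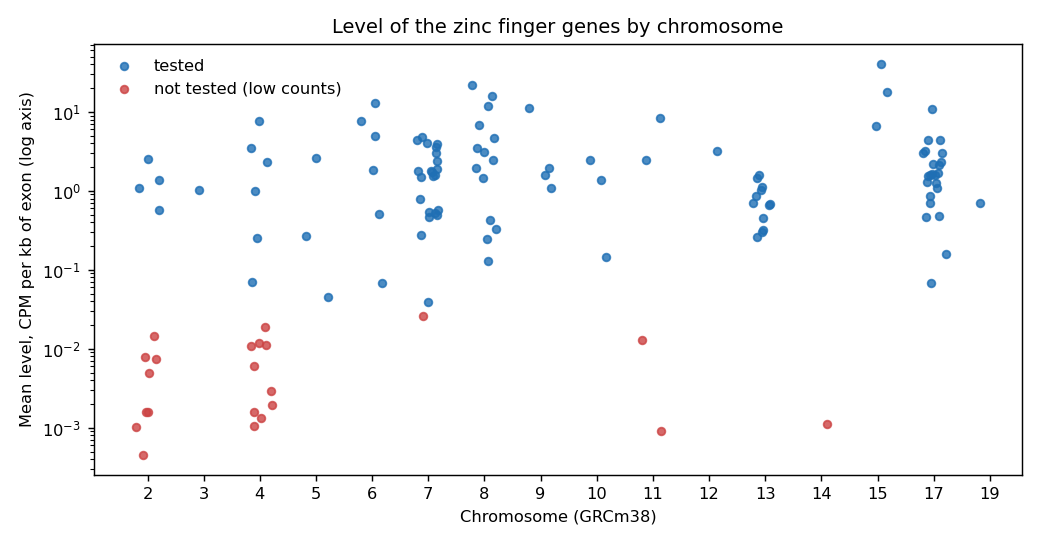
Mean level over 6 libraries in CPM per kilobase of exon (log axis) for each of the 127 members by chromosome, tested members in blue and members with too few counts in red. Of the red points, 10 lie on chromosome 4 and 8 on chromosome 2.

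**Figure D2:**
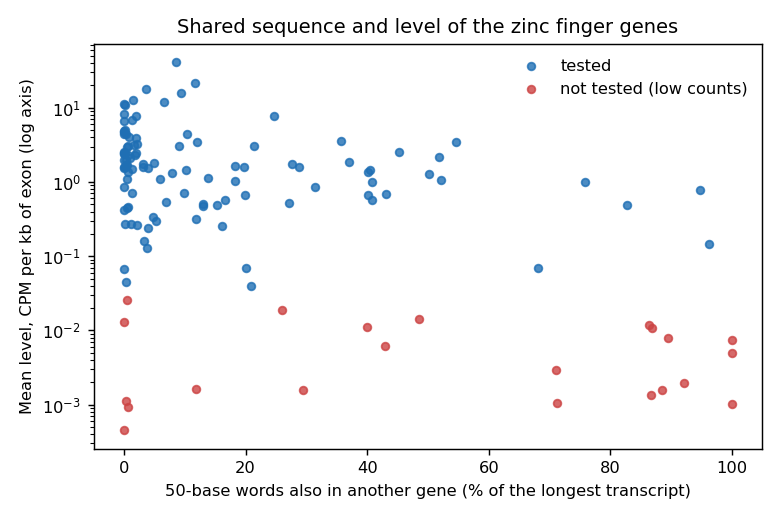
Mean level in CPM per kilobase (log axis) against the percentage of words of 50 bases in the longest transcript that occur in another gene. Members not tested (red) reach 100% shared words, and the 60 members with fewer than 5% are mostly among those tested (blue).

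Per kilobase of exon, the 105 members tested had a median level of 1.58 CPM, and all 12572 genes tested had 6.41 CPM. Of the members, 92 lay below that value for all genes. Members with a KRAB A box had a median of 1.45 CPM per kilobase and those without had 3.40. The GC content of the longest transcript had a median of 39.7% with the box, 51.1% without, and 49.9% over all genes.

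Of the 5 highest levels, 3 belonged to members without a KRAB A box. Zfp706, a small protein with 1 finger that promotes exit from the embryonic stem cell state, had 40.9 CPM per kilobase. Zfp703, a transcriptional corepressor known as a breast cancer oncogene, had 21.8 and Zfp740 had 18.1. Zfp869 and Zfp777, which carry the box, had 15.7 and 12.8. At the other end, Zfp976 had 0.039, Zfp853 had 0.045 and Zfp786 had 0.068 CPM per kilobase. Zfp809 had 11.3 CPM per kilobase, above the median for all genes. Its CPM in replicates 1 to 3 was 36.6, 28.6 and 39.2 on the acLDL-low side, against 34.0, 25.2 and 36.7 on the acLDL-high side. These ranges overlapped (log2 fold change -0.13, SE 0.05, edgeR adjusted p = 0.176).

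Between the populations, 7 of the 105 members passed an adjusted p of 0.05 in the quasi-likelihood test of edgeR, blocked on replicate, all lower in acLDL-high cells. That is 6.67% of the members, beside 4.75% of all genes tested in either direction, 1.32% lower and 3.43% higher. The contrast is the one from which the family was proposed, so nothing is read from these shares. At an unadjusted p of 0.05, 29 members and 19.4% of all genes tested passed. Without replicate 3, or without the block, 0 of the 7 passed (unadjusted, 24 and 0 members). The same fits called 1.01% and 0% of all genes.

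Zfp773 had the largest fold change. Its CPM in replicates 1 to 3 was 5.04, 2.36 and 3.80 on the acLDL-low side, against 3.65, 1.56 and 2.16 on the acLDL-high side. Each acLDL-high library lay below its partner, by 0.46, 0.59 and 0.81 on the log2 scale, while the groups overlapped because replicate 2 was low in both. The log2 fold change was -0.62 (SE 0.13, edgeR adjusted p = 0.0144). Zfp773 lies on chromosome 7 from 7127073 to 7136755 on the minus strand of GRCm38, with 8 fingers, and shares 12.9% of its words with another gene. With DESeq2 it was also called, and it lost its call without replicate 3 (adjusted p = 0.189) and without the block.

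Zfp790 and Zfp788 were the called members whose groups did not overlap. For Zfp790 the acLDL-low libraries held 7.005, 6.36 and 6.27 CPM, against 5.69, 4.37 and 4.95 in their acLDL-high partners (log2 fold change -0.39, SE 0.09, edgeR adjusted p = 0.0337). For Zfp788 the acLDL-low libraries held 7.90, 6.29 and 8.23 CPM, against 6.10, 5.48 and 5.98 in their acLDL-high partners (log2 fold change -0.35, SE 0.09, edgeR adjusted p = 0.0449). Every acLDL-high library of both genes was below every acLDL-low library. Zfp719 and Zfp729a also had groups without overlap, at log2 fold changes of -0.18 and -0.15 and edgeR adjusted p of 0.278 and 0.277. These 4 members of 105 stand beside 1.63% of all genes tested.

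Zfp760 held 12.5, 6.99 and 13.2 CPM in the acLDL-low libraries, against 10.3, 5.08 and 11.2 in their acLDL-high partners (log2 fold change -0.31, SE 0.08, edgeR adjusted p = 0.0385). Zfp930 held 10.1, 14.8 and 9.03 CPM in the acLDL-low libraries, against 8.12, 11.5 and 7.96 in their acLDL-high partners (log2 fold change -0.29, SE 0.08, edgeR adjusted p = 0.0458). Replicate 2 was the lowest pair for Zfp760 and the highest for Zfp930, so the groups overlapped in both. Zfp866, on chromosome 8, held 23.8, 18.8 and 20.7 CPM in the acLDL-low libraries, against 19.3, 15.02 and 17.995 in their acLDL-high partners (log2 fold change -0.28, SE 0.06, edgeR adjusted p = 0.0182). Its exons overlap another gene on the same strand by 421 bases.

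Zfp865 was the only called member without a KRAB A box. It held 41.9, 34.2 and 39.1 CPM in the acLDL-low libraries, against 37.8, 28.7 and 32.3 in their acLDL-high partners (log2 fold change -0.22, SE 0.05, edgeR adjusted p = 0.0235). Its exons overlap those of Zfp784 on the opposite strand, and other genes on the same strand (1567 bases, summed over genes). Of its words 35.6% are shared, most often with Zfp784, so its counts are uncertain. Of the called members, 4 lie on chromosome 7, 2 on chromosome 8 and 1 on chromosome 17.

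**Figure D3:**
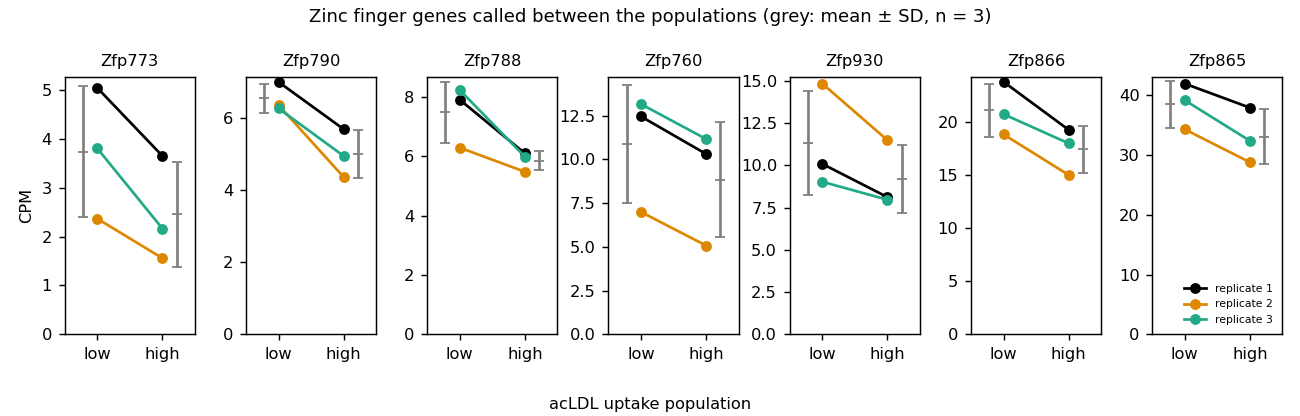
CPM of the 7 members called between the populations, with a line for each pair and grey bars for the mean and SD of 3 replicates. Every line falls from acLDL-low to acLDL-high, and the groups stand apart only for Zfp790 and Zfp788.

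Members outside the 7 calls spread to either side of 0. The next lowest fold changes at an average of at least 1 log2 CPM were those of Zfp971 (-0.33, SE 0.12, edgeR adjusted p = 0.160) and Zfp763 (-0.33, SE 0.13, edgeR adjusted p = 0.180). The highest at that level were Zfp704 (0.14), Zfp934 (0.09), Zfp958 (0.05), Zfp946 (0.04) and Zfp706 (0.02), none past the threshold. Without replicate 3 the sign turned for Zfp934, Zfp958 and Zfp946. In every pair Zfp704 was the higher in the acLDL-high library, by 0.08, 0.35 and 0.004.

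Most fold changes of the family sat below 0. The log2 fold change was negative in 89 of 105 members, beside 49.4% of all genes tested. Its median was -0.12 over the members and 0.00 over all genes. Within pairs 1, 2 and 3 the median difference between the members' log2 CPM in acLDL-high and acLDL-low libraries was -0.17, -0.14 and -0.09. In 47 members all 3 pairs were lower in acLDL-high cells (19.4% of all genes tested) and in 4 all 3 were higher (20.9% of all genes tested). The fold change was larger than its own SE in 70 of the 105 members and larger than 2 SE in 37, with a median SE of 0.09. These counts restate the F values of the same contrast. Their share over all genes was not taken, so nothing is read from them.

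The range was selected on this contrast, so the medians of its divisions are a description and nothing is read from their sign. The median was negative in each division of the family by protein, shared sequence, exon overlap and expression level, while it differed by chromosome. The median log2 fold change was -0.13 over the 85 members with a KRAB A box and -0.10 over the 20 without. It was -0.11 over the 55 members with fewer than 5% shared words and -0.14 over the 72 with no exon overlap. By average expression it was -0.08 under 1 log2 CPM, -0.14 from 1 to 3 and -0.12 above 3, where all genes had -0.02, -0.01 and 0.00. By chromosome it ran from -0.29 (the 1 member tested on chromosome 19) to 0.14 (Zfp704, the 1 member on chromosome 3), and on chromosome 4 only 3 of the 6 members tested were negative. The other numbered Zfp genes, 222 tested, had a median of -0.13, with 12 called lower and 0 higher, which lies on the same side of 0 as the members.

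**Figure D4:**
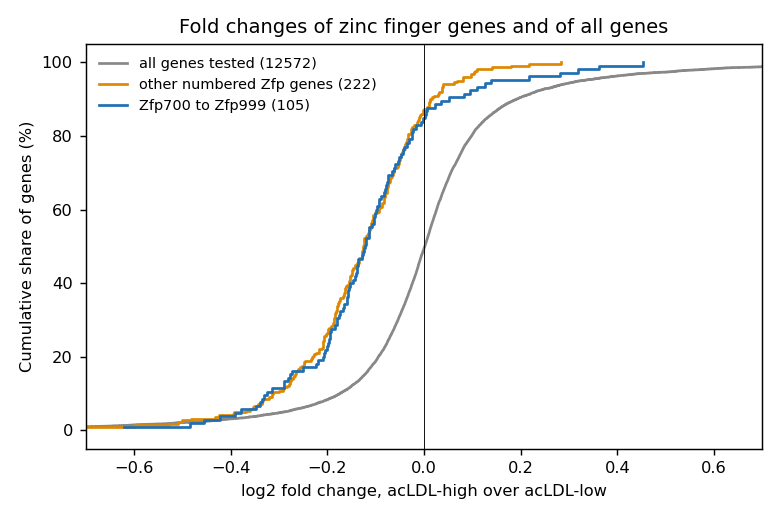
Cumulative share of genes against the log2 fold change of acLDL-high over acLDL-low cells, for the 105 members (blue), the 222 other numbered Zfp genes (orange) and all 12572 genes tested (grey). The blue and orange curves run together and lie left of the grey one, crossing 50% near -0.12 and -0.13.

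Genes through which KRAB proteins act were expressed throughout. All 24 corepressor genes found in the table, which encode TRIM28 partners, histone deacetylase and NuRD subunits, HUSH members and DNA methyltransferases, were above 1 CPM in every library. None passed the threshold in edgeR, beside 4.75% of all genes tested, and DESeq2 with the block also called 0. At an unadjusted edgeR p of 0.05, 3 passed, beside 19.4% of all genes tested. The median log2 fold change of the 24 was -0.02. Trim28 held 306, 368 and 346 CPM in the acLDL-low libraries, against 290.1, 341 and 321 in their acLDL-high partners (log2 fold change -0.10, SE 0.04, edgeR adjusted p = 0.204). Setdb1 held 104, 111 and 93.9 CPM in the acLDL-low libraries, against 98.6, 107 and 92.4 in their acLDL-high partners (log2 fold change -0.05, SE 0.04, edgeR adjusted p = 0.520). With the GC trend removed, the NuRD helicase gene Chd3 was called higher (log2 fold change 0.14, adjusted p = 0.0395).

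Other genes differed between the same libraries. Of 25 genes of the G2 and M phases, 16 were called higher in acLDL-high cells, beside 3.43% of all genes tested. The list was chosen with earlier results of these data known. These 25 genes had a median log2 fold change of 0.26. Their part in the values of the zinc finger genes was not tested. All 8 epithelial markers were above 1 CPM in every library. Of them 2, Cldn4 and Esrp1, were called higher, beside 3.43% of all genes tested. Of the macrophage, endothelial and fibroblast markers in the table, 2 of 7, 0 of 5 and 1 of 5 were above 1 CPM in every library (Cd68, Mrc1 and Pdgfra), and 0 of the 8 that had enough counts to be tested were called.

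The start sites of the members were compared with RefSeq windows on GRCm38.p6 that run from 250 bases before to 50 bases after each start. A window was found for 108 of the 127 members. Both strands were searched for each motif. The comparison genes were all those with a window, not only those of the protein-coding table. A gene with several windows counted once if any of them matched, and the number of windows per gene was not balanced. The CCAAT box, CCAAT, occurred in 70 of 108 members (64.8%) and in 41.1% of 27025 genes. The GC box, GGGCGG, occurred in 42.6% of members and 38.2% of all genes, the ETS core, CCGGAAG, in 14.8% and 9.93%, and the TATA box, TATAAA, in 5.56% and 15.7%. A match describes the letters and not a bound factor. The 250 bases before the start of 3 called members, from 5′ to 3′ of the gene with matches in capitals, show where these letters lie.
Zfp773, chr7:7136756-7137005, minus strand: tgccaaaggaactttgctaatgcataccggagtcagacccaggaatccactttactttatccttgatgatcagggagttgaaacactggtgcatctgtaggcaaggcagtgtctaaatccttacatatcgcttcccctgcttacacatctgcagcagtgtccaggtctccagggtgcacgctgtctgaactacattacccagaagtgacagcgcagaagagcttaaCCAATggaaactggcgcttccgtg
Zfp790, chr7:29815822-29816071, plus strand: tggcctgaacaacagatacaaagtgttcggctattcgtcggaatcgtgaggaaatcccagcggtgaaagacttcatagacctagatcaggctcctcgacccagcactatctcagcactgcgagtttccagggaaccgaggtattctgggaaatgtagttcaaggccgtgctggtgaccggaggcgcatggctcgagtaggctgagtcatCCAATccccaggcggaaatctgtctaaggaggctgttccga
Zfp760, chr17:21707491-21707740, plus strand: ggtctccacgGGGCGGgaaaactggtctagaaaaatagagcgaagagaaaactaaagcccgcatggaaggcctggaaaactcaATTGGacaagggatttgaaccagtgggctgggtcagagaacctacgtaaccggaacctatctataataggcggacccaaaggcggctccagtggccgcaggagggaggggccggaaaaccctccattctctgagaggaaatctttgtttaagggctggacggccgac
Each of the 3 held a CCAAT box on one strand or the other, and Zfp760 also a GC box.

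Differences between the culture occasions play no part in the choice of members and were tested in the same fit, by an edgeR quasi-likelihood F-test of the replicate term. Each occasion is 1 culture sorted into both populations, so the test sets cultures against the spread left within pairs and says nothing of any treatment. It called 70 of the 105 members (66.7%), beside 78% of all genes tested. By level it called 60.9% of members under 1 log2 CPM, 60% from 1 to 3 and 74.5% above 3. Over all genes of these levels it called 52.2%, 74.7% and 84.1%. The share called was 80% in the 55 members with fewer than 5% shared words and 52% in the 50 with at least 5%. These groups also differed in level, with medians of 9.33 and 4.14 CPM, and level was not separated from shared sequence. Without replicate 2, 34 of 104 members (32.7%) and 48.4% of all genes were called.

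Zfp763 had the largest range among members with an average of at least 1 log2 CPM, with occasion means of 2.05, 0.77 and 1.71 log2 CPM (edgeR adjusted p = 2.99e-05). Zfp839 followed, with 4.03, 2.82 and 3.63 log2 CPM (edgeR adjusted p = 2.67e-07). Zfp870 had 3.17, 2.01 and 3.07 log2 CPM (edgeR adjusted p = 1.06e-06). In all of these the second occasion was the lowest, as it was for Zfp773 (2.11, 0.96 and 1.53 log2 CPM, edgeR adjusted p = 6.56e-05) and Zfp810 (3.49, 2.47 and 3.62 log2 CPM, edgeR adjusted p = 9.21e-07). The range of Zfp773 between cultures was 1.15 log2 CPM, beside its log2 fold change of -0.62 between populations. Zfp703 went the other way and was highest on occasion 2, with 5.71, 6.66 and 6.09 log2 CPM (edgeR adjusted p = 2.55e-08). For Zfp790 and Zfp788 the ranges were 0.26 and 0.26 log2 CPM and the occasions were not called (edgeR adjusted p = 0.133 and 0.0780).

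Occasion 2 was the lowest for 69 of the 105 members (65.7%) and for 39.9% of all genes tested. It was also the lowest for 59.9% of the other numbered Zfp genes, whose median difference between it and the other occasions was -0.21 log2 CPM. The median difference between occasion 2 and the mean of the other occasions was -0.26 log2 CPM over the members and -0.01 over all genes. The difference also varied with expression level over all genes. Under 1 log2 CPM the median was -0.32 over the members and -0.48 over all genes of that level. From 1 to 3 log2 CPM it was -0.28 over the members and -0.25 over all genes of that level, and above 3 it was -0.16 and 0.06. The corepressor genes had a median of 0.14. What set the second occasion apart was not tested.

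**Figure D5:**
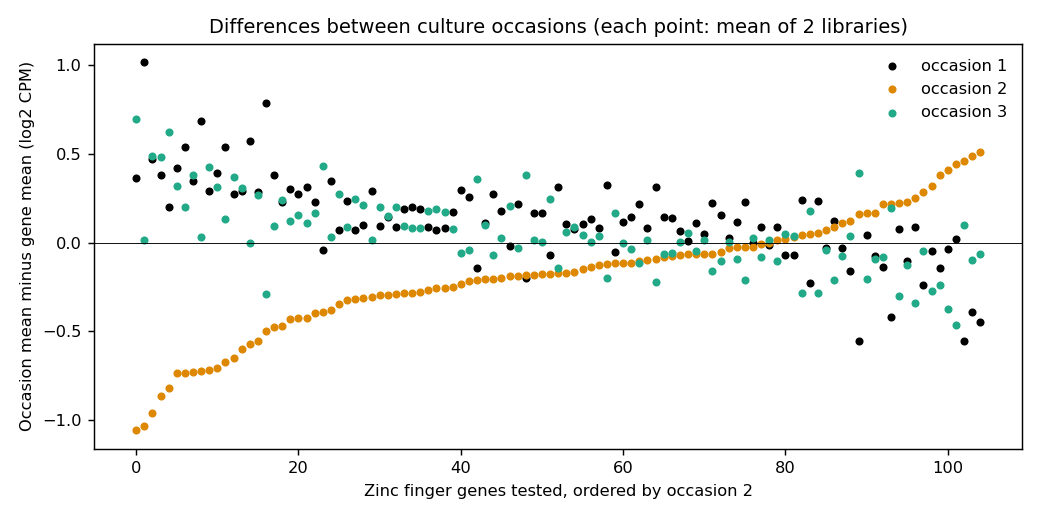
Mean log2 CPM of the 2 libraries of each occasion minus the member's mean over occasions, for the 105 members tested, ordered by occasion 2. Occasion 2 (orange) lies below 0 for most members, and occasion 2 was the lowest in 69 of them.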

How the data were processed

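RNA-Seq libraries of mRNA (TruSeq Stranded, 2 reads of 50 bases) were analysed from 3 acLDL-high and 3 acLDL-low samples. Per the submitters' processing notes and methods, the authors aligned reads to mm10 with STAR (2.5.2a), counted them per gene with featureCounts (1.4.3-p1) and deposited raw counts. The annotation release, strand setting and handling of multiply mapped reads are not given in the sources used here. A second deposited table holds the authors' own comparison (DESeq2, 1.20.0), whose gene symbols only were used. No per-sample column was left out.

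Counts were tested with edgeR (4.0.16, R 4.3.3): filterByExpr, TMM, its quasi-likelihood test blocked on replicate number, and Benjamini-Hochberg adjustment over the 12572 genes tested. SE was taken as the size of the fold change (log2) over the root of F, and log2 CPM uses a prior count of 2. The replicate numbers mark culture occasions per the series' design text. Deviations of same-numbered samples from their group means correlated at 0.795, 0.846 and 0.799. Nothing says more of how separate the cultures were. Alternatives were no block, DESeq2 size factors, DESeq2 (1.42.0), other low-count filters, all genes, a removed GC trend and each pair left out.

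Positions, lengths, exon overlaps, coding sequences and words of 50 bases come from GENCODE M21 (GRCm38), promoters from RefSeq. The KRAB matrix spans 40 residues.

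The members and all lists were chosen with earlier results of these data known. Named members are Zfp773, all called members, the 5 most positive and 5 most negative fold changes and the 5 largest occasion ranges at an average of at least 1 log2 CPM, the 5 highest and 3 lowest levels, the 3 with most fingers, and pairs of highest identity. Trim28 and Setdb1 are named from the corepressor list. Zfp719, Zfp729a, Zfp772, Zfp784, Zfp809, Zfp819, Chd3, Cldn4, Esrp1, Cd68, Mrc1 and Pdgfra were named after their values were seen.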

Additional observations from a re-analysis of the deposited data

How the results depend on the processing

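The count of 7 called members lay between 6 and 8 under DESeq2 size factors, both low-count filters, all genes of the count table and a removed GC trend, and the occasion count and the median log2 fold change of the members stayed within 1.5 times and 0.04 (the SD of the 3 pair medians) under these. The same fits called 4.1% to 5.83% of all genes between populations. DESeq2 with the replicate block called 3 members (Zfp773, Zfp865 and Zfp866) and 5 other numbered Zfp genes in place of 12. It called 2.93% of all genes, 0.645% being lower in acLDL-high cells. Without the replicate block, 0 members, 0 other numbered Zfp genes and 0 of 12329 genes in all were called (unadjusted, 0 members and 45 genes), while the members' median was -0.12. With no low-count filter, 28 other numbered Zfp genes and 5.83% of all genes were called. With the GC trend removed, 1 corepressor gene and 5.5% of all genes were.

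Leaving out each replicate in turn gave 0 to 5 called members, 0 to 18 other numbered Zfp genes, and 34 to 60 members called between occasions, with the lowest counts of the first 2 without replicate 3 and of the last without replicate 2. Without replicates 1, 2 and 3 the same fits called 5.25%, 6.96% and 1.01% of all genes between populations and 66.7%, 48.4% and 63.9% between occasions. The median log2 fold change ran from -0.13 to -0.10. Counting only members with fewer than 5% shared words, chosen after seeing the data, left 4 called of 55 (7.27%), beside 4.75% of all genes. Between occasions 44 of these 55 were called (80%). The share was 52% in the 50 tested members with at least 5% shared words and 78% in all genes. These groups also differed in level, which was not separated from shared sequence.

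Of the 7 called members, Zfp773, Zfp866 and Zfp865 kept their call under 8 of 10 alternatives, Zfp790 and Zfp788 under 6, Zfp760 under 5 and Zfp930 under 4, with the sign negative throughout. The sign of other named fold changes turned when a replicate was left out, over ranges of -0.022 to 0.297 for Zfp934, -0.0024 to 0.116 for Zfp958, -0.029 to 0.085 for Zfp946, -0.231 to 0.352 for Zfp786 and -0.042 to 0.096 for Zfp810 (-0.031 without replicate 2). It also turned with the GC trend removed for Zfp786 (0.0031) and Zfp810 (-0.012), with DESeq2 and the block for Zfp786 (0.116), and with all genes of the count table for Zfp786 (0.028). The cause was not tested. The 22 members with at most 31 counts entered the edgeR fit with no low-count filter and the DESeq2 fit, where none was called between populations and DESeq2 called Zfp819 between occasions. At such low counts the absence of calls between populations says nothing about these members.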
